A study of Homo sapiens with 31 samples.

Results

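The genes described are 7 matrix metalloproteinases (MMP1, MMP2, MMP3, MMP9, MMP10, MMP13 and MMP14) and 3 tissue inhibitors of metalloproteinases (TIMP1, TIMP2 and TIMP3), taken by gene name from 56269 names in the count tables. Of these 10 genes, 9 passed the filter on low counts, as did 15787 genes in all, and MMP13 did not. They were measured by messenger RNA sequencing in MCF10A, a non-transformed human breast epithelial cell line, over 31 libraries in 11 groups. Released cells got 1 µM palbociclib, a drug against the cell cycle kinases CDK4 and CDK6, and were collected after 9, 12, 15 and 24 h, or got 0.1% DMSO, a solvent, and were collected after 3, 6, 9, 12, 15 and 24 h. Whether the palbociclib medium held DMSO as well is not in the labels. The 0 h group was starved for 2 to 3 days without serum, EGF or insulin, and release was into full medium that held all of them. Starvation and growth media both held hydrocortisone and cholera toxin, so that every group was exposed to both agents. There were 3 libraries in a group, but only replicates 1 and 3 at 24 h, under palbociclib and DMSO alike.

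MMPs are zinc-dependent endopeptidases, made as inactive proenzymes, that cut extracellular matrix and surface proteins. MMP1 and MMP13 are collagenases, MMP3 and MMP10 are stromelysins, MMP2 and MMP9 are gelatinases, and MMP14 is a membrane-anchored enzyme that activates proMMP2 with TIMP2 as its bridge. The TIMPs bind MMP active sites. TIMP1 inhibits MMP14 poorly, and TIMP3 is held in the matrix and also inhibits ADAM17 and several ADAMTS proteases. In cultured epithelium several secreted MMP genes are known to respond to growth factors through AP-1 and ETS transcription factors.

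Library totals ran from 10342358 to 20878364 counts. Markers of basal breast epithelium, the labelled line, summed to 6636 to 13125 CPM (counts scaled by library totals with TMM factors), with all 7 detected in every group. Fibroblast markers summed to 15.4 to 85.4 CPM and macrophage and blood markers to 18.4 to 58.1 CPM. Endothelial markers summed to 89.7 to 98.8 CPM at 0 h and to 12.5 to 27.3 CPM at 3 h, nearly all of it KDR, and to at most 2.78 CPM later. Of these markers COL3A1 and LUM (fibroblast) had at most 2 counts in any group, and PTPRC (blood) and CDH5 (endothelium) at most 5. These are scarce members, and the sums come from other members of the lists. At 0 h 3 of the 7 fibroblast markers and 0 of the 5 macrophage and blood markers were without counts. These sums, the epithelial one included, were highest at 0 h or 3 h, and their part in the results was not tested. Replicate 3 of the 4 palbociclib groups and of the DMSO 24 h group lay at the opposite end of the main axis of within-group variation (27.5% of it) from replicate 3 of the other groups. Calls that were lost without these 5 libraries are given beside the result. Under palbociclib, E2F1, CCNE2 and MCM2, which E2F factors activate, fell at each time, by 5.25, 5.16 and 3.22 on the log2 scale at 15 h. Fewer cells that express a gene and less RNA per cell cannot be told apart in such bulk libraries.

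After release the 10 genes followed 6 courses. MMP3 had counts early and none at 24 h. MMP1, MMP9 and MMP10 had no counts at 0 h and highest at DMSO 15 h, and MMP2 was highest at DMSO 24 h. TIMP1 was several-fold higher from 3 h on, whereas MMP14, TIMP2 and TIMP3 were lower at every time than in starved cells. MMP13 had few counts, most of them at 0 h and 3 h. MMP1, MMP3, MMP9 and MMP10 passed the filter only through released groups in which they were present. With no counts at 0 h, they could not have been called lower than it. Their adjusted p-values against 0 h and between times, and counts of genes called, are therefore a description.

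The stromelysin gene MMP3 (chr11:102835801-102843803 of GRCh38, minus strand) had 2.08, 1.93 and 2.62 CPM in DMSO 3 h libraries, against 0 counts in the 3 starved libraries. All 3 released libraries were above all starved ones. Against a floor of 3 counts over the starved group, MMP3 was at least 35.7-fold higher at 3 h (adjusted p = 2.0e-09, edgeR quasi-likelihood test with Benjamini-Hochberg adjustment, as for all adjusted p-values here). DMSO 6 h libraries had 1.63, 1.83 and 2.16 CPM, DMSO 9 h libraries 0.999, 0.406 and 1.10 CPM, and DMSO 12 h libraries 0.193, 0.106 and 0.303 CPM. It fell at 9 h against 6 h (log2 fold change −1.22 ± 0.38, SE; adjusted p = 0.013) and again at 12 h against 9 h (−2.03 ± 0.54; adjusted p = 0.0098). The first of these calls was lost without replicate 2 of DMSO 9 h (−0.84; adjusted p = 0.12), and the second without replicate 1 of DMSO 9 h (−1.84; adjusted p = 0.053) or replicate 2 of DMSO 12 h (−1.67; adjusted p = 0.078). MMP3 then had 0, 1 and 3 counts at DMSO 15 h and none in both DMSO 24 h libraries, which allows a level of up to 0.0900 CPM there (3 counts over the group). The 15 h call against 0 h rests on those 4 counts (at least 1.46-fold higher; adjusted p = 0.033), and it was lost without any 1 of the 0 h libraries (adjusted p = 0.063 to 0.070) or without replicate 3 of DMSO 15 h (adjusted p = 0.20).

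The second stromelysin gene, MMP10 (chr11:102770503-102780628, minus strand), had 6.82, 10.4 and 10.2 CPM at DMSO 15 h, against 0 counts in all 3 starved libraries. That is at least 152-fold higher (adjusted p = 2.3e-14). It rose late: its mean was 0.0845 CPM at 3 h, 0.132 CPM by 6 h, 0.901 CPM by 9 h, 5.04 CPM by 12 h, 9.12 CPM by 15 h and 6.20 CPM by 24 h. The 6 h call against 0 h rests on 7 counts in 2 libraries (adjusted p = 0.029), and was lost without replicate 2 of DMSO 6 h (adjusted p = 0.15) or without any 1 starved library (adjusted p = 0.060 to 0.065). From 6 h to 12 h the course was steep. MMP10 was higher at 9 h than at 6 h (log2 fold change 2.50 ± 0.65; adjusted p = 0.0031) and higher at 12 h than at 9 h (2.50 ± 0.32; adjusted p = 1.1e-06). The further difference of 15 h from 12 h was smaller (0.86 ± 0.23; adjusted p = 0.017). Without either of replicates 1 and 2 of DMSO 12 h or either of replicates 2 and 3 of DMSO 15 h it was 0.74 to 0.86 and was not called (adjusted p = 0.069 to 0.12). At 24 h the 2 DMSO libraries had 6.31 and 6.08 CPM, below all 3 at 15 h, a difference that did not pass the test (−0.57 ± 0.25; adjusted p = 0.093). It was called with the main within-group axis as a covariate (−0.57; adjusted p = 0.026), without a count filter (adjusted p = 0.023), in a fit of those libraries alone (adjusted p = 0.013) and without replicate 1 of DMSO 15 h (−0.74; adjusted p = 0.040).

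The collagenase gene MMP1 (chr11:102789920-102798160, minus strand) had 2.89, 3.86 and 4.17 CPM at DMSO 15 h, against 0 counts in the 3 starved libraries, at least 60.3-fold higher (adjusted p = 1.5e-12). At 3 h, where MMP10 had 0, 0 and 3 counts, MMP1 had 2, 5 and 1 (adjusted p = 0.0043 against 0 h). Its mean was 0.355 CPM at 6 h, 0.835 at 9 h and 2.74 at 12 h. MMP1 was higher at 12 h than at 9 h by 1.73 ± 0.31 on the log2 scale (adjusted p = 1.7e-04). At 24 h it had 1.80 and 1.11 CPM and had fallen against 15 h (−1.35 ± 0.31; adjusted p = 0.0014), a call that was lost without replicate 3 of DMSO 24 h (−1.01; adjusted p = 0.076) and without the 5 libraries (−1.02; adjusted p = 0.11). It was also higher at 9 h than at 6 h (1.24 ± 0.45; adjusted p = 0.034). Without any 1 of the 6 libraries of that step the difference was 1.09 to 1.32 and was not called (adjusted p = 0.056 to 0.12).

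MMP13 (chr11:102942995-102955734, minus strand), the other collagenase, had 15 counts over the 3 starved libraries, 16 at DMSO 3 h, 3 at 6 h and 0 at 9 h. From 12 h to 24 h no DMSO group had more than 6 counts, and no palbociclib group, from 9 h on, had more than 4. It was not tested. Without a count filter it was called lower at 9 h (adjusted p = 9.6e-04) and at 12 h (adjusted p = 0.032) than at 0 h. These 4 genes lie within 185 kb on chromosome 11 in the order MMP10, MMP1, MMP3 and MMP13, with gaps of 9291, 37640 and 99191 bases. The last gap holds MMP12, which is not among the genes described. Although MMP1 and MMP3 are neighbours here, MMP3 was highest at 3 h and at 4.19% of its highest group mean by DMSO 15 h, the time at which MMP1 had its own. Of the exonic bases of MMP1, 7.61% are shared with WTAPP1 on the opposite strand, and WTAPP1 had at most 1 count in any group.

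The gelatinase gene MMP9 (chr20:46008908-46016561, plus strand) had 3.93, 3.58 and 3.57 CPM at DMSO 15 h, against 0 counts in the 3 starved libraries, at least 60.6-fold higher (adjusted p = 3.0e-13). Its mean was 0.793 CPM at 9 h, when it had risen against 6 h (log2 fold change 2.21 ± 0.49; adjusted p = 7.4e-04), and 2.41 CPM at 12 h. It had 2.08 and 2.12 CPM at DMSO 24 h, below all 15 h libraries (−0.81 ± 0.28; adjusted p = 0.026). That fall was not called without replicate 1 of DMSO 15 h (adjusted p = 0.066), without replicate 1 or 3 of DMSO 24 h (adjusted p = 0.11 and 0.14) or without the 5 libraries (adjusted p = 0.17). Its 6 h call against 0 h rests on 8 counts (at least 2.83-fold; adjusted p = 0.0026) and was lost without replicate 2 of DMSO 6 h (adjusted p = 0.052). An opposite-strand gene shares 18.4% of the exonic bases of MMP9, and had at most 1 count in any group.

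MMP2 (chr16:55389700-55506691, plus strand), the gelatinase that MMP14 activates, took another course. It had 5.55 and 5.39 CPM at DMSO 24 h, against values between 1.43 and 1.70 CPM in the 3 starved libraries, and the groups did not overlap (log2 fold change 1.82 ± 0.24; adjusted p = 4.6e-08). Its mean was 1.56 CPM at 3 h, 1.07 CPM by 6 h, 1.08 CPM by 9 h, 1.75 CPM by 12 h and 3.71 CPM by 15 h. MMP2 was higher at 15 h than at 12 h (1.07 ± 0.23; adjusted p = 0.0020) and was the only 1 of the 5 secreted MMPs tested whose DMSO mean was highest at 24 h. That last step did not pass the test (0.56 ± 0.22 against 15 h; adjusted p = 0.052), but was called with the axis covariate (0.55; adjusted p = 0.015), with a replicate block (0.60; adjusted p = 0.036) and in a fit of those libraries alone (0.54; adjusted p = 0.016).

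**Figure D1:**
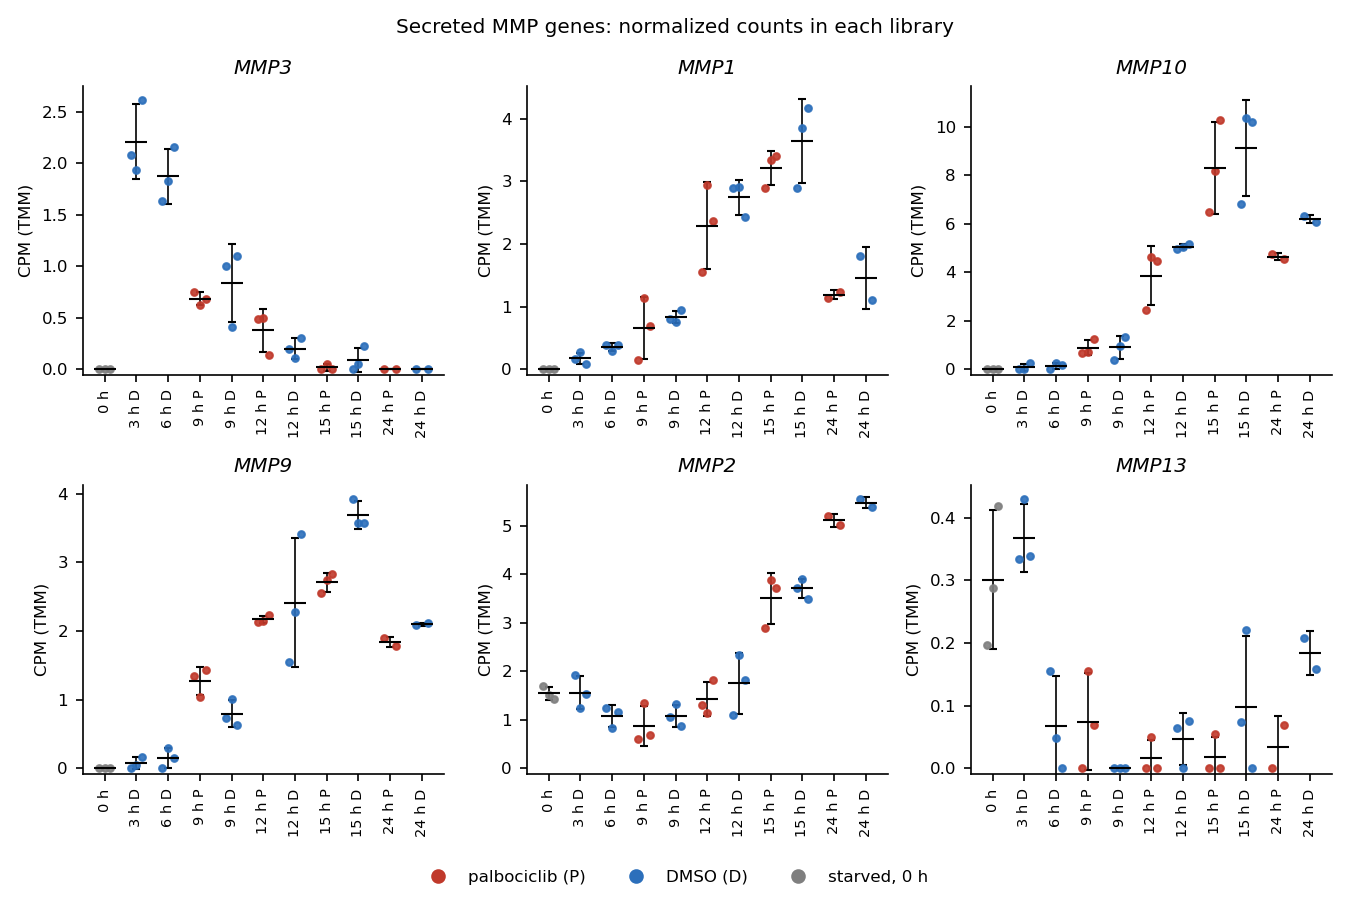
CPM (linear axes, scaled per gene) of the 6 secreted MMP genes in each library, by hour after release, with palbociclib in red, DMSO in blue and starved cells in grey. Bars are the group mean and SD (n = 3, or 2 at 24 h). MMP3 is high at 3 h and 6 h only, MMP1, MMP10 and MMP9 are highest at DMSO 15 h, and MMP2 is highest at DMSO 24 h, where it averages 5.47 CPM.

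MMP14 (chr14:22836557-22849027, plus strand) was by far the most abundant MMP of the 7. It had 266, 265 and 257 CPM at DMSO 9 h, against 551, 509 and 501 CPM in starved cells. The groups did not overlap, and MMP14 was lower by 0.99 ± 0.05 on the log2 scale (adjusted p = 6.6e-17). Its mean was 370.1 CPM at 3 h, 340.0 at 6 h, 319.6 at 12 h and 379.5 CPM at 15 h, and at 12 h it had risen against 9 h (0.28 ± 0.05; adjusted p = 2.1e-04). The rise at 15 h against 12 h (0.25 ± 0.05; adjusted p = 0.0020) was not called without replicate 1 of DMSO 12 h (adjusted p = 0.054) or without a count filter (adjusted p = 0.052). At DMSO 24 h MMP14 had 336 and 335 CPM, lower than at 15 h (−0.18 ± 0.06; adjusted p = 0.022), and this call was lost without either DMSO 24 h library (adjusted p = 0.13 and 0.17), without the 5 libraries (adjusted p = 0.087) or without a count filter (adjusted p = 0.27).

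TIMP1 (chrX:47582313-47586789, plus strand) had 215, 264 and 198 CPM at DMSO 3 h, against 58.2, 66.5 and 57.1 CPM in starved cells. Every released library was above every starved one (log2 fold change 1.90 ± 0.09; adjusted p = 1.8e-17). The level at 6 h averaged 226 CPM, and it was 252 CPM at 9 h, 318 at 12 h, 342 at 15 h and 351 CPM at 24 h. Between successive DMSO times TIMP1 passed the test at 12 h against 9 h (0.34 ± 0.09; adjusted p = 0.0074), a call lost without replicate 1 or 3 of DMSO 9 h (adjusted p = 0.064 and 0.052). At 24 h it was higher than at 0 h by 2.53 ± 0.10 (adjusted p = 3.3e-20).

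TIMP3 (chr22:32801701-32863043, plus strand), the matrix-bound inhibitor, had 304, 346 and 289 CPM at DMSO 6 h, against 726, 783 and 725 CPM in starved cells. All released libraries were lower (log2 fold change −1.25 ± 0.06; adjusted p = 4.0e-18). The fall had begun at 3 h, where TIMP3 averaged 589 CPM (−0.34 ± 0.06 against 0 h; adjusted p = 9.9e-06). TIMP3 was then higher at 9 h than at 6 h (0.24 ± 0.06; adjusted p = 0.0018), averaged 413 CPM at 12 h and 388 CPM at 15 h, and was lower at 24 h than at 15 h (−0.37 ± 0.07; adjusted p = 6.2e-05), with a mean of 299.7 CPM.

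TIMP2 (chr17:78852977-78925387, minus strand), which bridges proMMP2 to MMP14, was lowest at DMSO 24 h among the DMSO groups. It had 103 and 105 CPM at DMSO 24 h, against 227, 235 and 207 CPM in starved cells (log2 fold change −1.10 ± 0.07; adjusted p = 1.2e-15). Its mean was 200.2 CPM at 3 h, 153 CPM by 6 h, 123 CPM by 9 h, 119.5 CPM by 12 h and 115 CPM by 15 h. The steps to 6 h (−0.39 ± 0.06; adjusted p = 7.7e-07) and to 9 h (−0.31 ± 0.06; adjusted p = 9.3e-05) passed the test. At 3 h the groups overlapped, and the call (−0.15 ± 0.06; adjusted p = 0.020) was lost with DESeq2 size factors (adjusted p = 0.062), with DESeq2 (adjusted p = 0.057), without a count filter (adjusted p = 0.18), in a fit of those libraries alone (adjusted p = 0.37) and without replicate 1 or 2 of 0 h or replicate 3 of DMSO 3 h (adjusted p = 0.068 to 0.21).

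**Figure D2:**
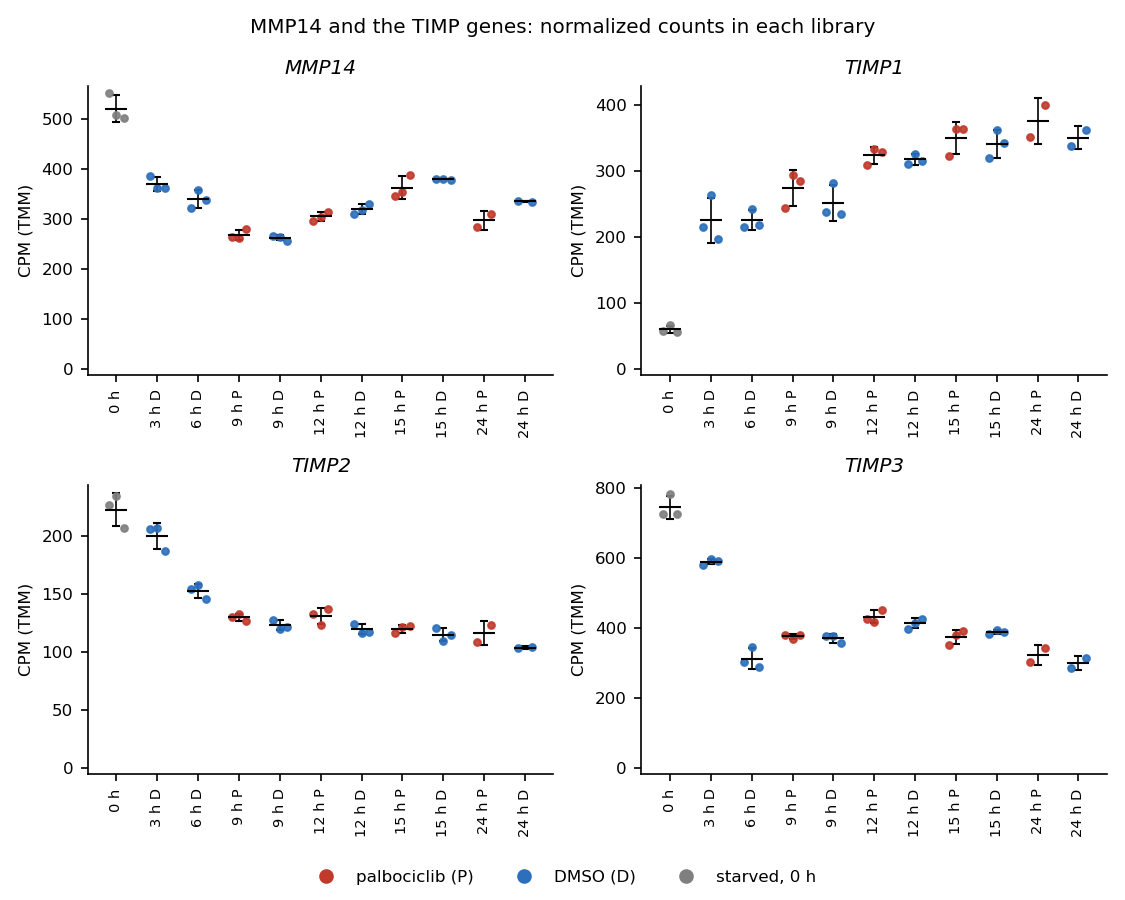
CPM (linear axes from 0, scaled per gene) of MMP14, TIMP1, TIMP2 and TIMP3 in each library, by hour after release, with palbociclib in red, DMSO in blue and starved cells in grey; bars are the group mean and SD (n = 3, or 2 at 24 h). TIMP1 is higher in every released library than at 0 h, and MMP14 and TIMP3 are lower.

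The 4 promoters of these genes in RefSeq's table show a member with no counts at 0 h (MMP10) beside 1 that was higher (TIMP1) and 2 that were lower (MMP14 and TIMP3) after release. Each line is the 150 bases before the transcript start on the gene's strand, 5′ to 3′, from the GRCh38.p14 build, and capitals mark matches to the letters TGANTCA (AP-1 like), AGGAAG (ETS like) or TATAAA, the usual TATA box, searched on both strands in 300 bases (250 before to 50 after the start), with no overlap between matches. The stretches are chr11:102780629-102780778 (minus strand) for MMP10, chrX:47582286-47582435 (plus) for TIMP1, chr14:22836435-22836584 (plus) for MMP14 and chr22:32801555-32801704 (plus) for TIMP3.
MMP10: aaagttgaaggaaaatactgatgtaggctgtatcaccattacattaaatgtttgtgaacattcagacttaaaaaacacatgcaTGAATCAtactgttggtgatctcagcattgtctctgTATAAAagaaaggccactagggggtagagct
TIMP1: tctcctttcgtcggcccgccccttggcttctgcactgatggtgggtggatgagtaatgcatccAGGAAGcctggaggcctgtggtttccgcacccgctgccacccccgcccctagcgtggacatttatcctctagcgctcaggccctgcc
MMP14: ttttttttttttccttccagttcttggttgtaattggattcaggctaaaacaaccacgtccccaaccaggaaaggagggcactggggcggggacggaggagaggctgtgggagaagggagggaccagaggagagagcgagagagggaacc
TIMP3: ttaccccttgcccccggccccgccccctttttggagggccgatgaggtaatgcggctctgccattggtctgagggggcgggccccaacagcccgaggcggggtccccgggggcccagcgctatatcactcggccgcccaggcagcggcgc

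The MMP10 window held TGAATCA from 67 bases before the start and TATAAA from 31 bases before it. TGANTCA was in 7.71% of 35116 promoter windows of the same length, and TATAAA in 11.5%. TIMP1 held AGGAAG from 87 bases before its start, which 33.6% of windows hold. None of the 3 motifs was in the windows of MMP14 and TIMP3, whose GC content was 55% and 72.7%, beside 36.3% in MMP10. A match is a description of letters, not of binding.

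Per kilobase of exon (RPKM), which allows levels to be compared between genes, the make-up of these 10 genes differed between starved and released cells. Of the summed TIMP RPKM, TIMP1 made up 73.1% ± 0.04 at DMSO 24 h (SD, n = 2), against 16.3% ± 0.52 at 0 h (SD, n = 3). TIMP3 made up 20.9% at DMSO 24 h, against 67.3% ± 0.74 at 0 h, so that TIMP1 led at DMSO 24 h and TIMP3 at 0 h. TIMP1 was already at 47.0% ± 3.4 at 3 h and 60.7% ± 0.86 at 6 h. MMP14 was 90.0% ± 1.4 of the summed MMP RPKM at DMSO 15 h, against 99.6% ± 0.03 at 0 h, and the other 6 MMPs together summed to 9.45 ± 1.4 RPKM at DMSO 15 h, against 0.419 ± 0.02 RPKM at 0 h. The ratio of summed TIMP to summed MMP RPKM was 2.06 ± 0.16 at 0 h and, with DMSO, 3.67 ± 0.37 by 3 h, 3.11 ± 0.12 by 6 h, 4.38 ± 0.28 by 9 h, 4.11 ± 0.11 by 12 h, 3.46 ± 0.10 by 15 h and 3.82 ± 0.22 by 24 h (SD). All released DMSO libraries lay above all starved ones. The MMP sums cover the 7 MMPs described only. Outside them, MMP28 averaged 12.8 RPKM at 0 h and 13.8 at DMSO 15 h, and MMP15 7.08 and 1.23. MMP7 averaged 3.88 RPKM at 0 h and 1.06 at DMSO 15 h. With these genes in the sum, the share of MMP14 would be smaller and the ratio of TIMP to MMP lower. These ratios are descriptions with no test, and they depend on the exon lengths in the files, which merge all annotated transcripts of a gene.

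**Figure D3:**
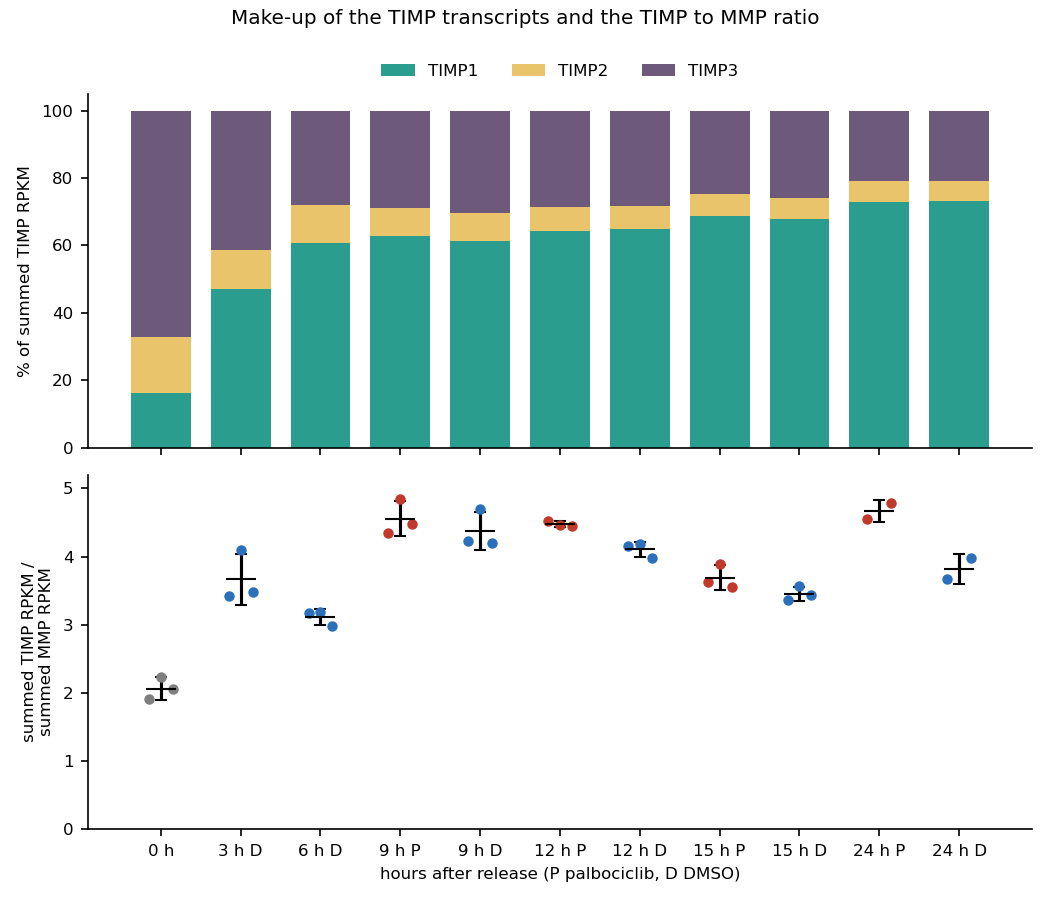
Share of the summed TIMP RPKM held by each TIMP (group means, upper bars) and the ratio of summed TIMP to summed MMP RPKM in each library (lower points, with group mean and SD), by hour after release, P for palbociclib and D for DMSO. The MMP sum covers the 7 MMPs described only. TIMP1 makes up 16.3% of the TIMP sum at 0 h and 73.1% at DMSO 24 h, and the ratio is lowest at 0 h.

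The number of these genes called stood against many calls in the whole table. At DMSO 3 h against 0 h, 3 of the 9 tested genes were higher and 3 lower, where 27.8% and 34.4% of all tested genes were higher and lower. At 6 h 5 were higher and 3 lower (34% and 39.5% of all genes), as at 9 h (35.3% and 39.9%) and at 12 h (36.1% and 39.6%). At 15 h 6 were higher and 3 lower (37.4% and 39.3%), and at 24 h 5 and 3 (36.7% and 38.9%). Over successive times, 0 were higher and 2 lower at 6 h against 3 h (27.8% and 29.8% of all genes), and 4 were higher and 3 lower at 9 h against 6 h (18.1% and 16.6%). The step to 12 h had 5 higher and 1 lower (9.07% and 6.12%), that to 15 h had 3 higher and 0 lower (5.03% and 1.98%), and that to 24 h had 0 higher and 4 lower (16.5% and 13%).

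The 4 matched comparisons of palbociclib with DMSO ask whether blocking CDK4 and CDK6 alters this response. None of the 9 tested genes described here passed the test at any time. MMP28, an MMP outside the 10 genes, was called at 24 h and is given below. Of 36 tests over 9 genes and 4 times, edgeR called 0, DESeq2 called 0, and 3 had an unadjusted p below 0.05 (TIMP2 at 12 h, MMP14 and TIMP2 at 24 h). At 9 h 0 of 9 were called, where 0.114% of all genes were higher and 1.08% lower under palbociclib. At 12 h the shares of all genes were 0.83% and 4.81%, at 15 h 2.15% and 8.79%, and at 24 h 5.76% and 12.3%. A count of 0 among 9 genes is near these background shares.

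For the abundant genes the intervals of the difference were narrow. At 15 h MMP14 had 346, 353 and 388 CPM under palbociclib, against 379.7, 379.9 and 379 CPM under DMSO, a fold of 0.956 (95% interval 0.887 to 1.03). TIMP1 had 323, 364 and 364 CPM under palbociclib, against 320.1, 363 and 343 CPM under DMSO, a fold of 1.02 (0.905 to 1.16). The groups overlapped for both genes. TIMP3 had a fold of 0.965 (0.887 to 1.05) and TIMP2 of 1.05 (0.962 to 1.14) at that time.

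At 24 h MMP14 had 284 and 310.4 CPM under palbociclib, against 336 and 335 CPM under DMSO, and did not overlap. The fold was 0.887 (0.808 to 0.972; adjusted p = 0.063), and MMP14 passed the threshold without replicate 3 of palbociclib 24 h and with 2 of the other settings given in the closing section. TIMP2 had 109 and 124 CPM under palbociclib, against 103 and 105 CPM under DMSO, a fold of 1.12 (1.01 to 1.24; adjusted p = 0.12), and passed it without replicate 1 of palbociclib 24 h and with library totals as the scale. TIMP1 had 351 and 401 CPM under palbociclib, against 338 and 363 CPM under DMSO, a fold of 1.07 (0.922 to 1.25). The ratio of summed TIMP to summed MMP RPKM was 4.56 and 4.78 under palbociclib, against 3.66 and 3.98 under DMSO, and TIMP1 made up 72.9% of the TIMP sum under palbociclib, against 73.1% under DMSO. This ratio was higher under palbociclib on average at each of the 4 times, without a test. Its MMP sum covers the 7 MMPs described and leaves out MMP28, which averaged 23.7 RPKM at palbociclib 24 h and 14.4 at DMSO 24 h. With MMP28 in the sum, the 24 h ratios of the 2 treatments would lie closer together.

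The scarce secreted MMPs had wide intervals. At 15 h MMP10 had 6.48, 8.15 and 10.3 CPM under palbociclib, against 6.82, 10.4 and 10.2 CPM under DMSO, a fold of 0.913 (0.670 to 1.25). MMP1 had 2.90, 3.34 and 3.40 CPM under palbociclib, against 2.89, 3.86 and 4.17 CPM under DMSO, a fold of 0.886 (0.621 to 1.26). The groups overlapped for both. MMP9 did not overlap: it had 2.56, 2.74 and 2.84 CPM under palbociclib, against 3.93, 3.58 and 3.57 CPM under DMSO, a fold of 0.737 (0.526 to 1.03; adjusted p = 0.30). At 9 h it was the other way round, with 1.34, 1.03 and 1.43 CPM under palbociclib, against 0.733, 1.01 and 0.631 CPM under DMSO, a fold of 1.53 (0.960 to 2.45; adjusted p = 0.56). The test of the change in the drug effect from 9 h to 15 h gave −1.06 ± 0.41 on the log2 scale for MMP9, with an unadjusted p of 0.015 and an adjusted p of 0.22.

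At 24 h MMP10 had 4.73 and 4.53 CPM under palbociclib, against 6.31 and 6.08 CPM under DMSO, a fold of 0.747 (0.486 to 1.15; adjusted p = 0.39). MMP2 had 5.21 and 5.01 CPM under palbociclib, against 5.55 and 5.39 CPM under DMSO, a fold of 0.933 (0.667 to 1.30). MMP3 had no counts in any of the 4 libraries at 24 h, and at 12 h it had 6, 10 and 2 counts under palbociclib, against 3, 2 and 4 under DMSO (fold 1.97, 0.822 to 4.73). The missed threshold does not show that the groups were alike.

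**Figure D4:**
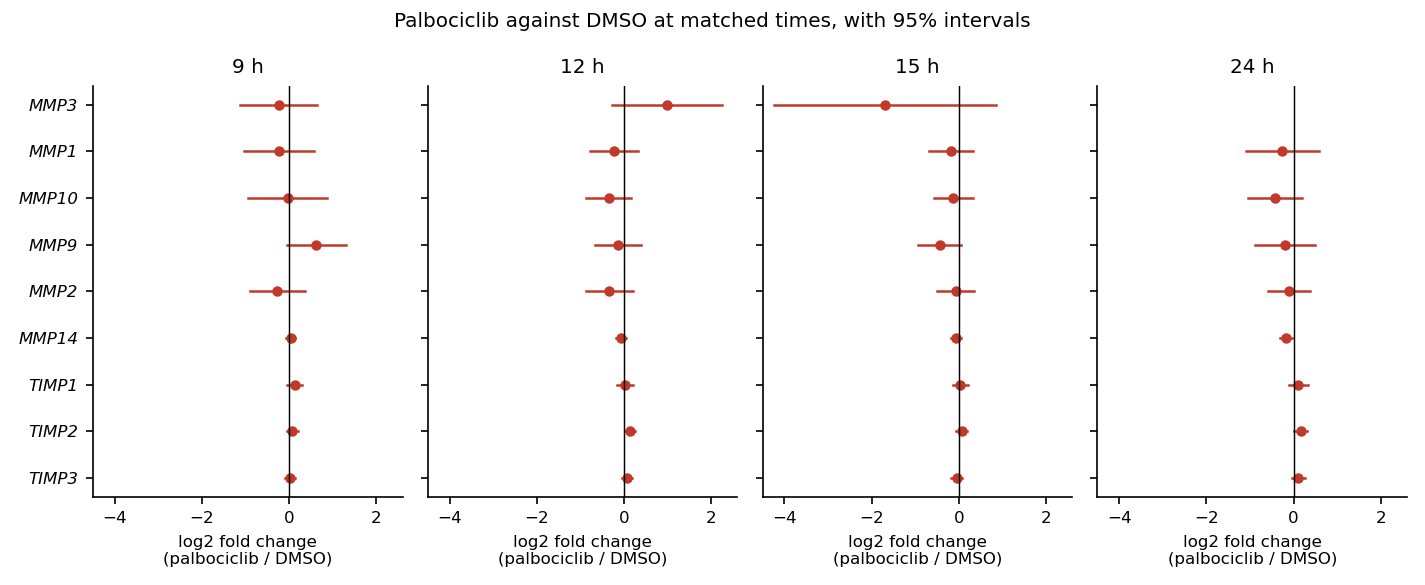
Log2 fold change of palbociclib over DMSO for each of the 9 tested genes at 4 matched times (points, with 95% intervals from the edgeR fit). MMP3 is left out at 24 h, where no library had a count. Points lie near 0 with short intervals for MMP14 and the TIMPs, and intervals are wide for the scarce secreted MMPs, widest for MMP3 at 15 h. The intervals of TIMP2 at 12 h and 24 h and of MMP14 at 24 h leave out 0, though these differences were not called.

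The change of the drug effect with time was called for 0 of the 9 genes, by edgeR and by DESeq2, at 15 h against 9 h (0.133% of all genes higher and 3.91% lower) and at 24 h against 15 h (1.06% and 1.92%). Unadjusted p was below 0.05 for MMP9 in the first and for no gene in the second. The palbociclib groups were also compared with 0 h and with each other. At palbociclib 24 h against 0 h, 5 genes were higher (MMP1, MMP2, MMP9, MMP10 and TIMP1) and 3 lower (MMP14, TIMP2 and TIMP3), where 34.3% and 36.9% of all genes were higher and lower. MMP10 was at least 76.0-fold higher (adjusted p = 4.9e-11) and TIMP1 higher by 2.63 ± 0.10 on the log2 scale (adjusted p = 2.4e-20). The comparisons of both 24 h groups with 0 h share the starved libraries.

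Between palbociclib 15 h and 9 h, 6 genes were higher (MMP1, MMP2, MMP9, MMP10, MMP14 and TIMP1) and MMP3 was lower (12.5% and 15.4% of all genes). MMP10 was higher by 3.26 ± 0.31 (adjusted p = 2.3e-09). MMP3 had 0, 1 and 0 counts at palbociclib 15 h, against 10, 12 and 10 at 9 h (−4.52 ± 0.83; adjusted p = 1.5e-04), given as a description. Between palbociclib 24 h and 15 h, 0 were higher and 4 lower (MMP1, MMP10, MMP14 and TIMP3; 11.2% and 9.31% of all genes). MMP1 fell by 1.43 on the log2 scale (SE 0.35; adjusted p = 0.0031) and was not called without the 5 libraries (−1.48; adjusted p = 0.085). MMP10 (−0.86 ± 0.28; adjusted p = 0.026) was not called without them (adjusted p = 0.36), without either palbociclib 24 h library (adjusted p = 0.098 and 0.15) or without replicate 3 of palbociclib 15 h (adjusted p = 0.11). MMP14 (−0.29 ± 0.06; adjusted p = 6.3e-04) was not called without replicate 1 of palbociclib 24 h (adjusted p = 0.068). TIMP3 (−0.22 ± 0.07; adjusted p = 0.019) was not called without that library (adjusted p = 0.40), without replicate 3 of palbociclib 15 h (adjusted p = 0.074), without a count filter (adjusted p = 0.12) or in a fit of those libraries alone (adjusted p = 0.078).

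Of 17 other MMP and TIMP genes, 9 were tested. At DMSO 3 h against 0 h 1 was higher, MMP19 (log2 fold change 1.14 ± 0.17), and 4 lower, among them MMP15 (−0.79 ± 0.11), a membrane-type enzyme, and MMP28 (−0.47 ± 0.07), beside 27.8% higher and 34.4% lower of all genes. At DMSO 24 h against 0 h MMP17 was higher (1.11 ± 0.21) and 3 were lower: MMP7, or matrilysin (−3.18 ± 0.22), MMP15 (−2.35 ± 0.15) and MMP24 (−1.87 ± 0.51), beside 36.7% higher and 38.9% lower of all genes. At 24 h 1 of the 9 was called under the drug, MMP28 or epilysin, which averaged 67.7 ± 6.6 CPM at palbociclib 24 h and 41.0 ± 0.23 CPM at DMSO 24 h (SD, n = 2 each; 0.73 ± 0.08; adjusted p = 3.7e-08). Its drug effect was larger at 24 h than at 15 h (difference 0.54 ± 0.11; adjusted p = 0.0021). TIMP4 had no counts in any library. MMP24 shares 21.8% of its exonic bases with opposite-strand genes and MMP19 17.4%, so their values are uncertain.

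Of 14 tested genes that activate, induce or clear MMPs, 8 were higher and 2 lower at DMSO 3 h against 0 h, beside 27.8% and 34.4% of all genes, with a median log2 fold change of 0.41 beside −0.10 over all genes. SERPINB2, a plasminogen activator inhibitor, was higher by 4.95 ± 0.13, and PLAUR, the urokinase receptor, by 3.56 ± 0.08. LRP1, an endocytic receptor that clears MMPs, was lower at 3 h (−0.67 ± 0.11) and further below 0 h at 24 h (−3.09 ± 0.15). At 24 h 9 were higher and 3 lower (36.7% and 38.9% of all genes; median 0.55 beside −0.09), PLAT, the tissue plasminogen activator, among the higher (2.36 ± 0.13). Under palbociclib at 24 h, LRP1 was higher (0.62 ± 0.15; adjusted p = 0.0030), and PLAU, or urokinase (−0.34 ± 0.09; adjusted p = 0.0075), and PLAUR (−0.29 ± 0.09; adjusted p = 0.019) were lower than with DMSO. PLAU shares 31.1% of its exonic bases with an opposite-strand gene, and SERPINB2 19.9% with a gene on its own strand, so both values are uncertain.

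Of the 12 tested ADAM and ADAMTS proteases, several of which TIMP3 inhibits, 7 were higher and 0 lower at DMSO 3 h against 0 h (27.8% and 34.4% of all genes; median 0.41 beside −0.10). ADAM17, the TNF-releasing sheddase, was higher by 1.55 ± 0.06, with 24.1% of its exonic bases shared with the opposite-strand gene IAH1, and the matrix proteases ADAMTS1 and ADAMTS9 by 3.39 ± 0.40 and 2.68 ± 0.18. At 24 h 9 were higher and 1 lower (36.7% and 38.9% of all genes; median 1.12 beside −0.09), led by ADAM19 (4.41 ± 0.12) and ADAM12 (4.94 ± 0.20), with ADAMTS15 lower (−1.70 ± 0.19).

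Of 17 tested matrix and surface substrates of MMPs, 10 were higher and 4 lower at DMSO 3 h against 0 h (27.8% and 34.4% of all genes; median 0.38 beside −0.10). At 24 h 11 were higher and 4 lower (36.7% and 38.9% of all genes; median 1.80 beside −0.09). The laminin chain LAMB3 (2.71 ± 0.05) and the proteoglycan SDC4 (1.85 ± 0.06) were higher at 3 h. TNC, or tenascin C, was higher by 4.25 ± 0.11 at 24 h, whereas the basement membrane genes NID1 (−6.60 ± 0.59) and HSPG2 (−2.46 ± 0.15) and the anchoring collagen COL7A1 (−2.57 ± 0.10) were lower. At 24 h palbociclib libraries had less TNC (−0.60 ± 0.09; adjusted p = 6.9e-06), COL4A2 (−0.51 ± 0.08; adjusted p = 1.3e-05) and COL4A1 (−0.44 ± 0.10; adjusted p = 0.0014) than DMSO libraries, the last pair being chains of type IV collagen. HSPG2 (0.57 ± 0.15), CDH1 (0.22 ± 0.07) and LAMB3 (0.18 ± 0.06) were higher under the drug.

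All 12 AP-1 and ETS factors were tested, and 9 were higher and 2 lower at DMSO 3 h against 0 h (27.8% and 34.4% of all genes; median 1.37 beside −0.10). FOSL1 averaged 443 ± 29 CPM at DMSO 3 h and 10.6 ± 1.6 CPM at 0 h (log2 fold change 5.39 ± 0.09), and ETS1 854 ± 32 CPM at DMSO 3 h and 33.2 ± 1.5 CPM at 0 h (4.69 ± 0.06; SD, n = 3 each). FOS, the immediate early AP-1 gene, was lower at 3 h (−1.12 ± 0.15), as was FOSL2 (−1.85 ± 0.11). By 24 h 4 were higher and 6 lower than at 0 h (36.7% and 38.9% of all genes; median −0.67 beside −0.09), with ETV4 (6.72 ± 0.19) and ETV5 (4.26 ± 0.13), both PEA3-group ETS factors, among the higher. At 24 h 4 of the 12 were lower under palbociclib than under DMSO and 0 higher, beside 12.3% and 5.76% of all genes. FOSL1 averaged 76.6 ± 4.0 CPM under palbociclib and 131 ± 6.3 CPM under DMSO (SD, n = 2 each; −0.78 ± 0.09; adjusted p = 1.9e-08), and ETV4 (−0.66 ± 0.12; adjusted p = 1.2e-04), ETV5 (−0.63 ± 0.11; adjusted p = 9.2e-05) and ETS1 (−0.36 ± 0.07; adjusted p = 2.7e-04) were lower as well. MMP1, MMP9 and MMP10 did not pass the test in these libraries. At 24 h the fold of palbociclib over DMSO was 0.836 for MMP1 (95% interval 0.467 to 1.497) and 0.874 for MMP9 (0.542 to 1.409). For MMP10 it was 0.747 (0.486 to 1.15). With intervals this wide, a fall of these genes cannot be told from no change. Whether the levels of these factors and of the MMPs are linked was not tested.

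The widest ranges of group mean log2 CPM among the 9 genes were those of MMP10 (6.13), MMP9 (4.88) and MMP1 (4.84), and the narrowest was that of MMP14 (0.99). Over the 11 group means, the genes whose log2 CPM ran most like MMP10 were EFR3B (Pearson r = 0.992), LTBP2 (r = 0.984) and TEX261 (r = 0.982). Those most like MMP9 were TEX261 (r = 0.985), DVL1 (r = 0.985) and HNRNPA3 (r = 0.985), and those most like MMP1 were EHBP1L1 (r = 0.978), EFR3B (r = 0.972) and TLN1 (r = 0.967). These are the highest correlations found among all genes of sufficient level, over 11 points that share their release course, and are given as a description.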

How the data were processed

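Per the labels' protocols, libraries came from a stranded poly(A) kit and were read as single ends of 75 nt. FastQC 0.11.3, TopHat2 2.1.1, Bowtie2 2.2.9, Subread 1.5.1 and GRCh38.p7 are named in the submitters' processing notes. The deposited tables hold raw read counts by gene name, made with featureCounts, per the file headers, on GENCODE 25 exons with no strand option, so reads of a gene and of an overlapping opposite-strand gene cannot be told apart; reads that fit several genes were left out. Exonic bases shared with other genes were computed from the files' positions. Levels are CPM with TMM factors (0.927 to 1.081), and RPKM divides by the files' exon length.

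Counts were fitted in R 4.3.3 with edgeR 4.0.16: filterByExpr by group, TMM, 1 quasi-likelihood fit of all 31 libraries with 20 residual degrees of freedom, a test per contrast and Benjamini-Hochberg adjustment over 15787 genes. A call is an adjusted p below 0.05; its SE divides the size of the log2 fold change by the root of the F statistic. The common biological coefficient of variation was 6.55%. Folds against groups with 0 counts use a floor of 3 counts over that group. They leave out the counting error of the other group, so "at least" holds for its observed counts only. Intervals of counts cover counting error only. The code was tested on simulated counts. Alternatives were DESeq2 1.42.0, DESeq2's size factors, library totals, no count filter, a fit of each comparison's own libraries, single libraries left out, 5 libraries left out, a replicate block, the main within-group axis as a covariate, and a fold minimum. The combined series table, which holds the same counts, was not used.

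Whether replicates were separate cultures is not in the labels; the p-values therefore speak only of variation among these samples, which could be technical in origin. Replicates differed by more than sampling noise (chi-square per degree of freedom 3.09 to 16.0), and each counts as 1 sample. The genes and the 5 lists of related genes were chosen with earlier results of these data known. Named from each list were up to 3 called genes per direction with the smallest p at DMSO 3 h and 24 h against 0 h and for palbociclib against DMSO at 15 h and 24 h, of which the clearest are given; WTAPP1, IAH1, KDR, TIMP4 and ETS1 under the drug were named after their values were seen. Some genes that this rule names are not reported here. Alike genes were the 3 with the highest Pearson r to each of the 3 members of widest range, where the mean log2 CPM reached 1. RefSeq promoter sequences matched 4 of the 10 genes.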

Additional observations from a re-analysis of the deposited data

How the results depend on the processing

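None of the gene-level results reversed under the settings run. Of 504 values of the 88 called results with 1 library left out, 464 kept the call, and of 633 under the other settings, 620 did. Among them are calls of MMP1, MMP3, MMP9 and MMP10 against 0 h, which could not reverse because these genes had 0 counts there. Called results that had no value under a setting, as when its filter left the gene out, are not in these totals. Counts of genes called moved by more than 1.5 times in these cases. When a log2 change of 1 or more in size was also required, the counts were 3 at DMSO 3 h against 0 h, 5 at 12 h against 0 h, 0 at 6 h against 3 h, 4 at 9 h against 6 h, 1 at 15 h against 12 h, 1 at 24 h against 15 h and 1 at palbociclib 24 h against 15 h. In fits of their own libraries, 6 h and 9 h against 0 h gave 5 each, with fewer genes tested, and no called gene tested there lost its call. Fits of this kind held 75 of the 88 called results, of which 2 were lost, both in other comparisons. DMSO 24 h against 15 h gave 7 with the within-group axis as covariate (MMP2, MMP10 and TIMP2 in addition) and 1 without the 5 libraries. Palbociclib 24 h against 15 h gave 2 without them. With single libraries left out, the counts ran from 1 to 4 at DMSO 15 h against 12 h, 1 to 4 at DMSO 24 h against 15 h, 1 to 4 at palbociclib 24 h against 15 h and 0 to 1 at palbociclib 24 h against DMSO 24 h. In this last comparison the count was 1 with library totals (TIMP2), 1 with the replicate block (MMP14) and 1 with the axis covariate (MMP14), beside 0 as reported; the causes were not tested.

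Replicate numbers did not meet the rule for pairing, which required 3 pairs all above 0.1. In comparisons of 3 pairs the correlations of same-numbered deviations ran from −0.249 to 0.422. At least 1 pair in each of them was at or under 0.061. In comparisons among 0 h and DMSO groups up to 15 h, replicates 2 and 3 gave 0.114 to 0.422, and replicate 1 at most 0.061. Libraries of replicates 2 and 3 thus shared some variation there, which the main fit did not model. Of comparisons with 2 pairs, palbociclib 24 h against DMSO 24 h gave 0.297 and palbociclib 24 h against 15 h 0.460 and 0.496. Beside MMP14 above, the block added calls of MMP14 at DMSO 6 h against 3 h (adjusted p = 0.039), TIMP1 at 9 h against 6 h (adjusted p = 0.037), TIMP3 at 12 h against 9 h (adjusted p = 0.039) and MMP2 at 24 h against 15 h (adjusted p = 0.036), and removed none. Depth limits the scarce genes: MMP1, MMP3, MMP9, MMP10 and MMP13 had few counts per library, so their drug differences have wide intervals, and groups of 2 libraries at 24 h rest on a spread estimated over all groups, as does the lone library when 1 of them is left out.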
